A study of Mus musculus with 22 samples.

Results

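The genes of the TNF ligand and receptor superfamily were examined in the distal colon of C57BL/6, Winnie and Winnie-Prolapse mice. Members were taken by gene name, with no limit on their level: every row named Tnfsf or Tnfrsf followed by a number, plus Tnf, Lta, Ltb, Ltbr, Cd40, Cd40lg, Cd27, Cd70, Fas and Fasl. This gave 42 of the 46078 genes in the table, of which 17 encode ligands, 24 encode receptors and 1 (Tnfsf13os) is an antisense transcript.

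Bulk mRNA sequencing was performed on 22 distal colon samples, 1 per mouse. C57BL/6 mice (n = 8; 4 males, 4 females) carried wild-type Muc2 and were 14 weeks old. Winnie mice (n = 7; 3 males, 4 females), also 14 weeks old, carried the missense mutation of Muc2, which encodes the main secreted mucin of goblet cells, and develop chronic colitis spontaneously. Winnie-Prolapse mice (n = 7; 4 males, 3 females) carried the same mutation, had rectal prolapse and were 18 weeks old, so that age and prolapse cannot be told apart. The Winnie mutation is a germline change, so that it is not limited to the goblet cells that make the mucin, and no group was given an agent. C57BL/6 and Winnie mice came from 1 breeding colony, and the labels gave no litter, extraction or sequencing batch.

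Ligands of this superfamily are mostly trimeric membrane proteins that can be shed, and each binds 1 or a few receptors on neighbouring cells. Receptors with a death domain, such as TNFR1 and Fas, can start apoptosis or necroptosis. Many of the others, though not the decoy receptors, bind TRAF adaptors and drive NF-kappaB and MAP kinase signalling. In the gut they regulate lymphocyte survival, lymphoid tissue organisation and epithelial turnover, and blocking TNF is an established treatment of inflammatory bowel disease.

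Library totals ranged from 24.8 to 36.3 M counts, and levels are given as CPM, the counts of a gene per M counts of its library. A gene with a count of 0 could lie as high as 3 counts, which corresponded to 0.0825 to 0.121 CPM. The colonic label was met by Epcam, Slc26a3 and Car1. Epcam was near level at 1670, 1640 and 1570 CPM (means in C57BL/6, Winnie and Winnie-Prolapse), whereas the colonocyte transporter Slc26a3 was at 2640, 1720 and 411 CPM. Winnie-Prolapse replicate 6 held 1.55e+05 CPM of 5 milk protein and mammary markers, against at most 47.1 CPM in every other library, and counts are therefore also given without it. Summed squamous epithelium markers (5 genes) ranged from 3.5 to 47.3 CPM in C57BL/6, 5.41 to 93 CPM in Winnie and 105 to 2730 CPM in Winnie-Prolapse. Summed T cell markers (9 genes) were at 9.24 to 32.9, 22.9 to 53.5 and 27.4 to 66.8 CPM, and plasma cell markers (6 genes) at 267 to 638, 519 to 1550 and 1040 to 1860 CPM. In bulk tissue, a change in the number of cells that make a transcript and a change in its amount per cell cannot be told apart, and the part of tissue composition in the results below was not tested.

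Levels were first compared between members per length, as CPM per kilobase of annotated exon. In C57BL/6 colon the receptors were led by Ltbr at 41.1 ± 3.29 CPM per kilobase (SD, n = 8), Tnfrsf21 at 28.0 ± 5.6, Tnfrsf1a at 27.2 ± 4.72 and Tnfrsf11a at 24.8 ± 3.94. The last 3 of these lay within their SDs of each other. In Winnie-Prolapse the order was Tnfrsf1a at 68.0 ± 17.0 CPM per kilobase (SD, n = 7), Ltbr at 55.1 ± 8.81 and Tnfrsf1b at 41.9 ± 14.9, again with overlapping SDs. Ligands were lower. Tnfsf13 (APRIL) at 5.69 ± 0.885, Tnfsf12 (TWEAK) at 5.43 ± 1.0 and Ltb at 3.02 ± 2.9 CPM per kilobase led in C57BL/6, whereas Tnf at 15.9 ± 10.1, Tnfsf13 at 7.74 ± 2.02 and Tnfsf10 (TRAIL) at 7.6 ± 3.23 led in Winnie-Prolapse.

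**Figure D1:**
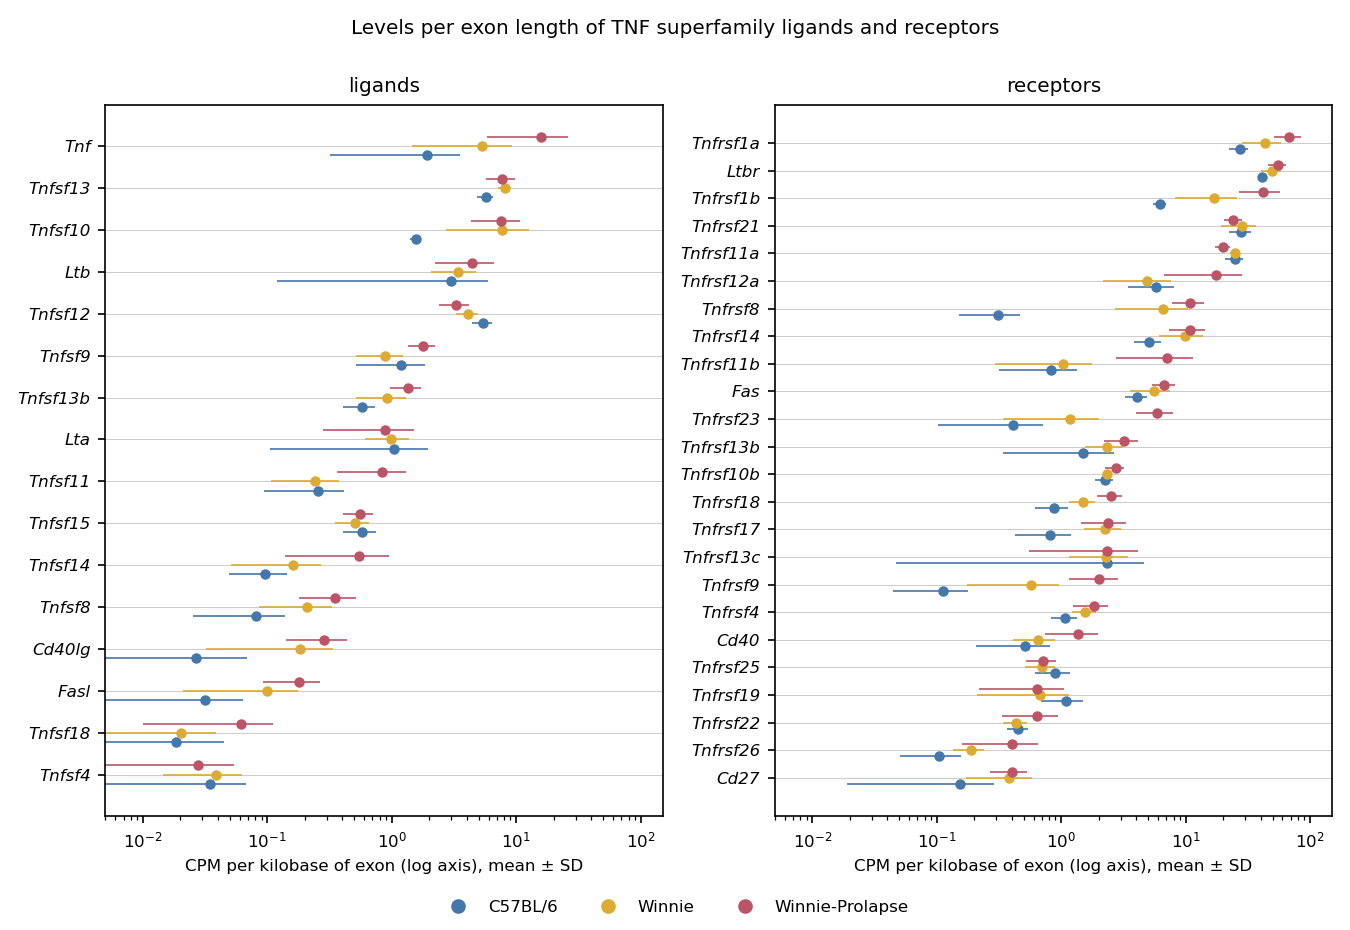
Mean level per exon length (CPM per kilobase, log axis) of the ligands (left, without Cd70, which was near 0) and receptors (right) in the 3 groups, with SD bars that pass below the axis where they reach its left edge. Ltbr, Tnfrsf21, Tnfrsf1a and Tnfrsf11a were the highest receptors in C57BL/6, and Tnf moved from 1.93 to 15.9 CPM per kilobase between C57BL/6 and Winnie-Prolapse.

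Changes were tested with the edgeR quasi-likelihood test, with Benjamini-Hochberg adjustment over all genes tested. The limit set in the study was an adjusted p under 0.001 with at least 1.5-fold change, and a broader limit of adjusted p under 0.05 with the same fold is given beside it. Only the limit was taken from the study, which used edgeR on fewer Winnie mice and does not give the form of the test. Counts of calls here are therefore not comparable with those of the study. Of the 42 members, 37 passed the low-count filter in at least 1 comparison. The ligands Tnfsf4, Tnfsf18, Fasl, Cd70 and Cd40lg did not pass in any, and Tnfsf14 passed through Winnie-Prolapse alone.

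Between Winnie and C57BL/6, 1 of 36 tested members, Tnfrsf8, was upregulated at the study limit, where 0.0925% of all genes tested were called and 0.0868% were higher. At the broader limit 15 members were upregulated and 0 downregulated, where 15.9% of all genes were called in either direction, 7.42% higher and 8.53% lower. Between Winnie-Prolapse and C57BL/6, 17 of 37 tested members were called at the study limit, all of them upregulated, with 18.3% of all genes called and 9.84% higher. Without Winnie-Prolapse replicate 6 the count was 14, with Fas, Tnfrsf12a and Tnfrsf17 no longer past the limit and 15.3% of all genes called. At the broader limit 23 members were upregulated and 1, Tnfsf12, downregulated, with 34.4% of all genes called in either direction, 16.7% higher and 17.7% lower. Both comparisons use the same C57BL/6 libraries and are not independent.

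Winnie-Prolapse and Winnie were compared directly to ask what differs between Winnie mice with and without prolapse, which also differ in age. No member passed the study limit in edgeR, where 0% of all genes did. An unadjusted p under 0.05 was found for 14 of the 37 tested members and for 4743 of all 17041 genes tested. At the study limit DESeq2 called 5 members, and 2.19% of all genes. At the broader limit 10 members were higher in Winnie-Prolapse and 0 lower, with 6.99% of all genes called, 4.27% higher and 2.72% lower. Without Winnie-Prolapse replicate 6 the count was 8, with Cd40, Tnfrsf1b and Tnfsf11 lost and Tnfrsf26 gained, and 3.53% of all genes were called. Those 10 members were Tnfrsf23, Tnfrsf11b, Tnfrsf9, Tnfrsf12a, Tnfsf11, Tnfsf14, Tnfrsf1b, Cd40, Tnfsf9 and Tnfrsf18. Tnfsf14, with 4 to 22 counts in Winnie, passed the low-count filter through the Winnie-Prolapse libraries, so it adds no support to this count. The median log2 fold change of the tested members was 0.56 in Winnie, 1.18 in Winnie-Prolapse (each against C57BL/6) and 0.37 between them, beside -0.01, -0.01 and 0.01 over all genes tested.

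**Figure D2:**
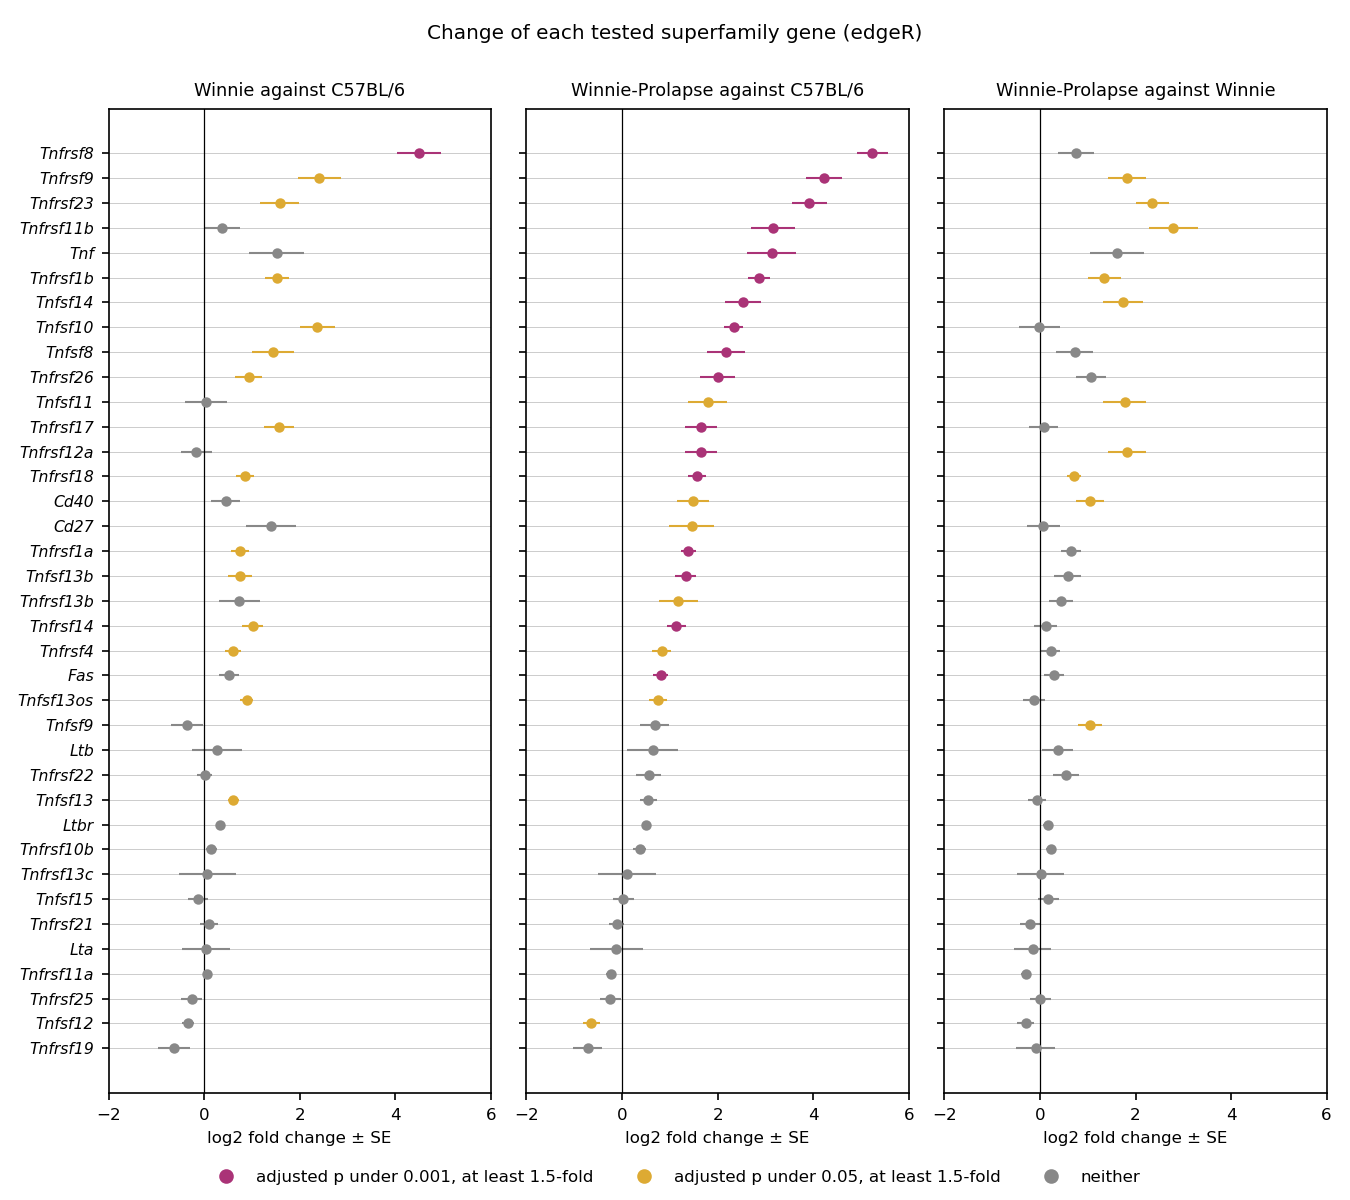
Log2 fold change with SE of the 37 tested members in the 3 group comparisons, ordered by the change between Winnie-Prolapse and C57BL/6 and coloured by the limit passed. Tnfrsf8 heads both comparisons with C57BL/6 (4.50 and 5.24) but not the comparison of Winnie-Prolapse with Winnie, which Tnfrsf11b (2.79) and Tnfrsf23 (2.35) head.

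The CD30 receptor gene Tnfrsf8, whose product marks activated T and B lymphocytes, had the largest fold change of the family in both comparisons with C57BL/6. C57BL/6 libraries held 0.326 to 1.99 CPM with a median of 0.993. Winnie libraries held 3.97 to 43.7 CPM with a median of 22.1, and Winnie-Prolapse libraries held 25.4 to 55.2 CPM with a median of 35.2. Every library of either colitis group lay above every C57BL/6 library, while the lowest Winnie library, replicate 5, stood well under the other 6. Against C57BL/6 the log2 fold change was 4.50 ± 0.46 in Winnie (SE; adjusted p = 0.000255) and 5.24 ± 0.33 in Winnie-Prolapse (adjusted p = 1.79e-08). The Winnie call at the study limit held in 10 of 15 fits that left out 1 library, with an adjusted p of at most 0.00152 in the others. Winnie-Prolapse and Winnie differed by 0.75 ± 0.38 (adjusted p = 0.211). The ligand of CD30, Tnfsf8, was sparse. It ranged from 0.0952 to 0.733 CPM in C57BL/6 (median 0.262), 0.27 to 1.54 CPM in Winnie (median 0.675) and 0.711 to 2.28 CPM in Winnie-Prolapse (median 0.967). Of the Winnie libraries 3 of 7, and of the Winnie-Prolapse libraries 6 of 7, lay above every C57BL/6 library, and the colitis groups overlapped each other. It was upregulated at the broader limit in Winnie (1.45 ± 0.44, adjusted p = 0.0253) and at the study limit in Winnie-Prolapse (2.17 ± 0.40, adjusted p = 0.000355). Tnfsf8 had 3 to 19 counts in C57BL/6 and passed the low-count filter through the colitis libraries, so these calls are no independent support. The Winnie call of Tnfsf8 was lost without Winnie replicate 1 (adjusted p = 0.0708) and without replicate 2 (adjusted p = 0.055). The Winnie-Prolapse call of Tnfsf8 at the study limit was kept in 12 of 15 such fits and lost without C57BL/6 replicate 2 or 4 or Winnie-Prolapse replicate 7 (adjusted p up to 0.00109).

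TNF itself and its receptors rose together in Winnie-Prolapse. Tnf, the founding cytokine of the family, ranged from 1.22 to 8.64 CPM in C57BL/6 (median 1.99), 0.886 to 16.4 CPM in Winnie (median 7.37) and 8.02 to 54.4 CPM in Winnie-Prolapse (median 24.2). Of the 7 Winnie libraries, 3 lay above every C57BL/6 library, all 3 of them male (14.2 to 16.4 CPM), and 1 female (replicate 5, at 0.886 CPM) lay below every C57BL/6 library. Tnf did not pass the broader limit in Winnie (1.52 ± 0.57, adjusted p = 0.0575), but it did without C57BL/6 replicate 1, Winnie replicate 4 or Winnie replicate 5, with a term for sex and in DESeq2. It passed the study limit in Winnie-Prolapse (3.13 ± 0.52, adjusted p = 0.000152), where 6 of 7 libraries lay above all C57BL/6 libraries. The Winnie-Prolapse females held 24.2 to 54.4 CPM and the males 8.02 to 33.5 CPM, without the male lead seen in Winnie.

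Tnfrsf1b encodes TNFR2, the TNF receptor without a death domain that is carried largely by lymphocytes and myeloid cells. It held 19.5 to 27.3 CPM in C57BL/6 (median 23.3), 22.9 to 127 CPM in Winnie (median 61.2) and 78.7 to 242 CPM in Winnie-Prolapse (median 168). All but 1 Winnie library and all Winnie-Prolapse libraries lay above the C57BL/6 range. The log2 fold change was 1.53 ± 0.25 in Winnie (adjusted p = 0.00186), 2.87 ± 0.23 in Winnie-Prolapse (adjusted p = 2.05e-07) and 1.35 ± 0.34 between the colitis groups (adjusted p = 0.0284), the last of which was lost in 7 of 14 fits that left out 1 library. Tnfrsf1a, encoding the widely expressed death domain receptor TNFR1, moved less from a higher start. Its libraries held 56.2 to 85.8 CPM in C57BL/6 (median 70.2), 67.6 to 180 CPM in Winnie (median 115) and 134 to 252 CPM in Winnie-Prolapse (median 161). C57BL/6 and Winnie-Prolapse did not overlap, and the log2 fold change was 0.75 ± 0.18 in Winnie (adjusted p = 0.0107) and 1.39 ± 0.15 in Winnie-Prolapse (adjusted p = 2.85e-06). Lta (lymphotoxin alpha), which also binds both receptors and lies 1157 bases from Tnf, had a mean of 1.44, 1.37 and 1.23 CPM in the 3 groups and was not called in any comparison. Myeloid markers were also higher in these libraries. Summed macrophage and monocyte markers (7 genes) ranged from 89.6 to 131 CPM in C57BL/6, 95.7 to 147 CPM in Winnie and 95.6 to 253 CPM in Winnie-Prolapse, and neutrophil markers (6 genes) from 4.17 to 359, 312 to 651 and 526 to 1760 CPM, with no marker at 0 in all libraries. At the study limit in Winnie-Prolapse, 6 of 7 macrophage and monocyte markers were higher and 1, Mertk, was lower, and 4 of 5 tested neutrophil markers were higher. The median log2 fold change of these 5 neutrophil markers was 9.25, so that their summed CPM does not describe the single markers. The part of myeloid cells in the changes of Tnf, Tnfrsf1b and Tnfrsf1a was not tested.

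**Figure D3:**
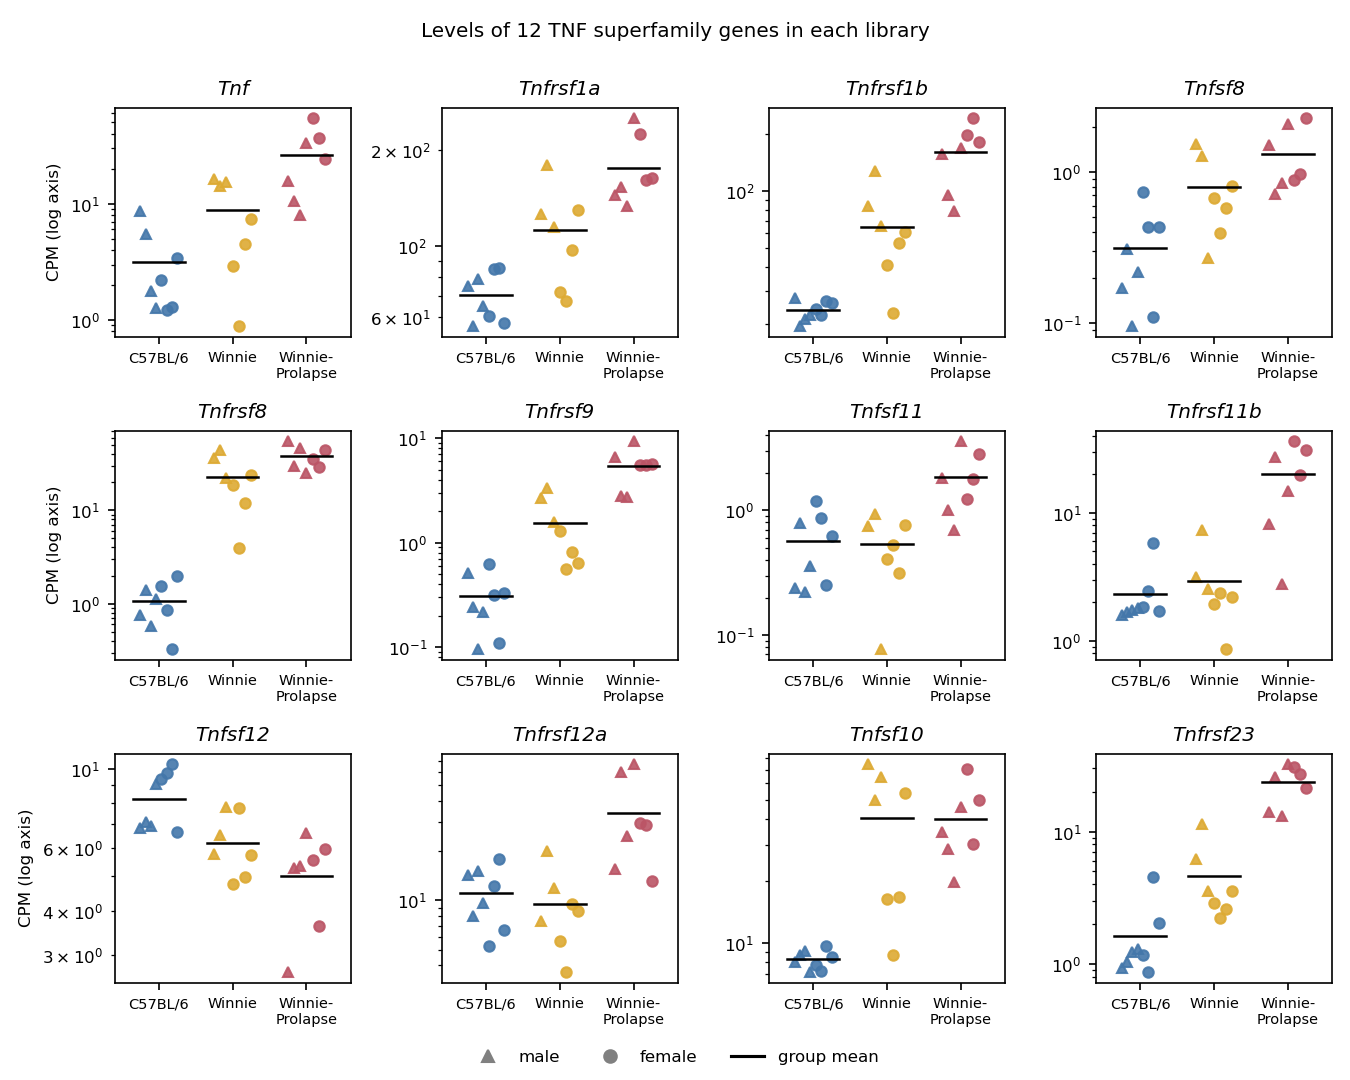
CPM (log axis, scaled separately for each gene) of 12 members in every library, with triangles for males, circles for females and a line at the group mean. Tnfrsf8, Tnfrsf1b, Tnfrsf9 and Tnfrsf23 of Winnie-Prolapse lie above every C57BL/6 library, whereas Tnfsf12 of Winnie-Prolapse lies below every C57BL/6 library.

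Receptor genes that mark activated T cells formed a further group. Tnfrsf9 encodes CD137, a costimulatory receptor induced on activated T and NK cells. C57BL/6 libraries held 0.0952 to 0.617 CPM of it (median 0.277), Winnie libraries 0.558 to 3.36 CPM (median 1.28) and Winnie-Prolapse libraries 2.75 to 9.39 CPM (median 5.52). Each Winnie-Prolapse library exceeded all C57BL/6 libraries, and 5 of the 7 exceeded all Winnie libraries. The log2 fold change of Tnfrsf9 was 2.41 ± 0.45 in Winnie (adjusted p = 0.00355), 4.23 ± 0.38 in Winnie-Prolapse (adjusted p = 7.35e-07) and 1.83 ± 0.40 between them (adjusted p = 0.0206). Tnfrsf9 had 3 to 16 counts in C57BL/6 and passed the low-count filter through the colitis libraries. Its calls against C57BL/6 are therefore no independent support. The gene overlaps Camta1 on the opposite strand. Its ligand Tnfsf9 was at 1.29, 0.952 and 2.24 CPM (medians) and was higher in Winnie-Prolapse than in Winnie (1.04 ± 0.25, adjusted p = 0.0243, kept in 10 of 14 fits without 1 library) but not than in C57BL/6 (0.68 ± 0.30, adjusted p = 0.0666), where it passed in 3 of 15 fits without 1 library.

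Tnfrsf18 encodes GITR, abundant on regulatory T cells, and Tnfrsf4 encodes OX40, a costimulatory receptor of activated T cells. Tnfrsf18 ranged from 0.718 to 2.04 CPM in C57BL/6 (median 1.28), 1.97 to 3.52 CPM in Winnie (median 2.04) and 3.02 to 5.5 CPM in Winnie-Prolapse (median 3.49). It was upregulated at the study limit in Winnie-Prolapse (1.57 ± 0.18, adjusted p = 6.8e-06) and at the broader limit in Winnie (0.86 ± 0.19, adjusted p = 0.00745) and between them (0.71 ± 0.15, adjusted p = 0.0187). Tnfrsf4 had means of 1.48, 2.12 and 2.49 CPM and passed the broader limit in Winnie (0.60 ± 0.17, adjusted p = 0.0197) and Winnie-Prolapse (0.83 ± 0.20, adjusted p = 0.00302), the Winnie call being kept in 10 of 15 fits without 1 library and lost without TMM factors or with at least 10 counts per library. Their ligands were barely detected. Tnfsf18 reached at most 10 counts and Tnfsf4 at most 5 counts in any library, and neither passed the low-count filter. Of 9 T cell markers, none of which was at 0 in all libraries, 8 were higher in Winnie and 8 in Winnie-Prolapse at the broader limit. Of 3 regulatory T cell markers, 2 were higher in Winnie and 3 in Winnie-Prolapse at the same limit. The part of these cells in the changes of the receptor genes was not tested.

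The 250 bases before the RefSeq start site (GRCm38) are given for the 5 members with the largest increase in Winnie-Prolapse that had a matched promoter, Tnfrsf8, Tnfrsf9, Tnfrsf23, Tnf and Tnfrsf1b, since the results turn on these genes. Both listed start sites of Tnfrsf9 are shown. Tnfrsf8 and Tnfrsf1b are neighbours, 20266 bases apart on chromosome 4. Capitals mark matches to a motif.
Tnfrsf8 (chr4:145315165-145315414, minus strand): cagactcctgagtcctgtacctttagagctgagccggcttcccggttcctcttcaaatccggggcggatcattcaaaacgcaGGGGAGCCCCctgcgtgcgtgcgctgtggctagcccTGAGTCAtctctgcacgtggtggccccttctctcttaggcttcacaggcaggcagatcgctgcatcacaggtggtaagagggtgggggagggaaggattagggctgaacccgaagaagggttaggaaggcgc
Tnfrsf9 start site 1 (chr4:150919905-150920154, plus strand): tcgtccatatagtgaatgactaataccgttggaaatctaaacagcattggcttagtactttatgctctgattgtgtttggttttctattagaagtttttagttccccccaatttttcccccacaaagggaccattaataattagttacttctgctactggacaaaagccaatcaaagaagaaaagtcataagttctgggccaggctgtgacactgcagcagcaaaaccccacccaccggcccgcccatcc
Tnfrsf9 start site 2 (chr4:150927749-150927998, plus strand): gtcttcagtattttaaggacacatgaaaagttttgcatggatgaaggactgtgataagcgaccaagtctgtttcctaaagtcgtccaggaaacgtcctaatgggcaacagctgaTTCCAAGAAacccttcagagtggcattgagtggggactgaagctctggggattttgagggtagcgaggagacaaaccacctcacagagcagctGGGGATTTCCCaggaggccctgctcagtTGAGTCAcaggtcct
Tnfrsf23 (chr7:143685876-143686125, minus strand): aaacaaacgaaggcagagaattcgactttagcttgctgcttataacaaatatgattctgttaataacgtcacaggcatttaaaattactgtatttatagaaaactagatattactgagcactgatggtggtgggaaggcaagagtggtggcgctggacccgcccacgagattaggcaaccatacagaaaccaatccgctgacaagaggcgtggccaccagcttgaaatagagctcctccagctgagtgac
Tnf (chr17:35202008-35202257, minus strand): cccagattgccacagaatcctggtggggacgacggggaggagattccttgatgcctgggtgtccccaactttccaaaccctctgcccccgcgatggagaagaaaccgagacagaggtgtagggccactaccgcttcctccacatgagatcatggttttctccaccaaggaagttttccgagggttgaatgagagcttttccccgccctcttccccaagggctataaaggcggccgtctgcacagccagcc
Tnfrsf1b (chr4:145246871-145247120, minus strand): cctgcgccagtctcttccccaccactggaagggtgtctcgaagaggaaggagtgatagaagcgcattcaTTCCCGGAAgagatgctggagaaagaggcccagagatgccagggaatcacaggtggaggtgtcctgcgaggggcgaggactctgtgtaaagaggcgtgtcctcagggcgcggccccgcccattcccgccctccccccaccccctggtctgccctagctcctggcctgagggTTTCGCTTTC
The motifs, searched on both strands, were the NF-kappaB consensus, the STAT-binding GAS (TTCNNNGAA), the interferon-responsive ISRE (GAAA, any 2 bases, then GAAA) and AP-1 (TGANTCA). Tnfrsf8 held an NF-kappaB match 168 bases and an AP-1 match 132 bases before the start. Tnfrsf1b held a GAS match 181 bases and an ISRE match 10 bases before it. At its second start site Tnfrsf9 held a GAS match at 136 bases, overlapping NF-kappaB matches at 43 and 42 bases and an AP-1 match at 15 bases. The window of its first start site and those of Tnfrsf23 and Tnf held 0 matches to these motifs. Of all 32851 promoter windows of this length, 3.9% held an NF-kappaB match, 7.02% GAS, 2.98% ISRE and 6.75% AP-1.

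Promoter windows were matched for 31 of the 42 members (35 windows), and 15 of the 17 members called at the study limit in Winnie-Prolapse were among them. An NF-kappaB match was found for 3 members, of which Tnfrsf8 and Tnfrsf9 were called and Ltb was not. ISRE matches were found for 4 members, Tnfrsf14, Tnfrsf17, Tnfrsf1b and Tnfsf13b, each of which was called. GAS matches were found for 8 members, of which Fas, Tnfrsf18, Tnfrsf1a, Tnfrsf1b and Tnfrsf9 were called and Lta, Ltb and Tnfrsf25 were not. AP-1 matches were found for 6 members, of which 5 were called and Tnfsf13 was not. These matches describe letters in a short window and do not show that a factor was bound.

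TRAIL was upregulated in both colitis groups, with fold changes of nearly the same size. Tnfsf10, encoding this death-inducing ligand, held 7.16 to 9.64 CPM in C57BL/6 (median 8.22), 8.66 to 74.6 CPM in Winnie (median 49.5) and 19.7 to 70.7 CPM in Winnie-Prolapse (median 34.8). The C57BL/6 libraries lay close together, and the Winnie libraries fell into 4 at 49.5 CPM or above and 3 at 16.7 CPM or below. The log2 fold change was 2.37 ± 0.37 in Winnie (adjusted p = 0.00162), 2.34 ± 0.20 in Winnie-Prolapse (adjusted p = 5.07e-07) and -0.01 ± 0.42 between them (adjusted p = 0.988). Its death receptor Tnfrsf10b was at 12.2 ± 1.97, 12.8 ± 0.904 and 14.9 ± 2.63 CPM (SD, n = 8, 7 and 7) and changed by less than 1.5-fold.

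Fas, the death receptor for Fas ligand, ranged from 6.05 to 11 CPM in C57BL/6 (median 8.64), 7.65 to 17.3 CPM in Winnie (median 10.7) and 11.7 to 18.7 CPM in Winnie-Prolapse (median 12.4). Its C57BL/6 and Winnie-Prolapse libraries did not overlap (0.81 ± 0.16, adjusted p = 0.000519), although the call at the study limit held in 6 of 15 fits that left out 1 library and was lost without TMM factors or with all 3 groups in one fit. Fasl itself reached 17 counts at most, with medians of 0.0544, 0.144 and 0.282 CPM in the 3 groups, and did not pass the low-count filter. In Winnie-Prolapse against C57BL/6, Fasl passed the study limit in DESeq2 and the broader limit in edgeR without that filter.

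Receptors of the decoy kind on chromosome 7 behaved unequally. Tnfrsf23 and Tnfrsf22 are mouse TRAIL receptors that lack a death domain, and their genes lie 16147 bases apart. Tnfrsf23 held 0.865 to 4.53 CPM in C57BL/6 (median 1.2), 2.23 to 11.5 CPM in Winnie (median 3.55) and 13.0 to 32.4 CPM in Winnie-Prolapse (median 25.9). It was the 1 tested member whose Winnie-Prolapse libraries all lay above every Winnie library, where 0.411% of all genes did so. The log2 fold change was 1.58 ± 0.41 in Winnie (adjusted p = 0.0139), 3.92 ± 0.37 in Winnie-Prolapse (adjusted p = 9.97e-07) and 2.35 ± 0.35 between them (adjusted p = 0.00787). Tnfrsf22 had medians of 1.85, 1.93 and 2.68 CPM and was not called (0.56 ± 0.26 in Winnie-Prolapse, adjusted p = 0.0774), except without Winnie-Prolapse replicate 3. Because the handling of reads shared between related genes is not given in the sources used here, the division of counts between Tnfrsf22 and Tnfrsf23 is uncertain. Tnfrsf22, Tnfrsf23 and Tnfrsf26 also overlap E230032D23Rik on the opposite strand. Tnfrsf26, the third receptor gene of the cluster, rose from a median of 0.277 CPM in C57BL/6 to 0.623 CPM in Winnie (0.93 ± 0.28, adjusted p = 0.025) and 1.08 CPM in Winnie-Prolapse (2.0 ± 0.36, adjusted p = 0.000288). The Winnie call of Tnfrsf26 was lost without Winnie replicate 1 or 2 (adjusted p up to 0.0557). Tnfrsf26 had 5 to 18 counts in C57BL/6 and passed the low-count filter through the colitis libraries. Its calls against C57BL/6 are therefore no independent support.

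Of the RANK system, the decoy receptor and the ligand were upregulated in Winnie-Prolapse, and the signalling receptor did not pass. Tnfrsf11b encodes osteoprotegerin, a secreted decoy receptor that binds RANKL and TRAIL. Its libraries held 1.61 to 5.83 CPM in C57BL/6 (median 1.78), 0.863 to 7.34 CPM in Winnie (median 2.36) and 2.78 to 36.4 CPM in Winnie-Prolapse (median 19.7). The C57BL/6 and Winnie ranges overlapped fully, and 6 of 7 Winnie-Prolapse libraries lay above both. Tnfrsf11b was upregulated in Winnie-Prolapse against C57BL/6 (3.16 ± 0.46, adjusted p = 5.23e-05) and against Winnie (2.79 ± 0.51, adjusted p = 0.014), and did not pass in Winnie (0.38 ± 0.38, adjusted p = 0.479). Of 5 squamous epithelium markers, 4 were also higher in Winnie-Prolapse than in C57BL/6, as were 3 of 5 fibroblast markers at the broader limit, and their part in this result was not tested.

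Tnfsf11, encoding RANKL, was low, with 0.222 to 1.2 CPM in C57BL/6 (median 0.495), 0.0771 to 0.929 CPM in Winnie (median 0.525) and 0.696 to 3.6 CPM in Winnie-Prolapse (median 1.77). It passed the broader limit in Winnie-Prolapse against C57BL/6 (1.79 ± 0.41, adjusted p = 0.00211) and against Winnie (1.77 ± 0.44, adjusted p = 0.0278), the latter in 9 of 14 fits that left out 1 library. The signalling receptor Tnfrsf11a (RANK) held 118 to 185 CPM in C57BL/6, 135 to 167 CPM in Winnie and 109 to 154 CPM in Winnie-Prolapse, and did not pass in Winnie-Prolapse against C57BL/6 (-0.23 ± 0.11, adjusted p = 0.0891) or Winnie (-0.30 ± 0.09, adjusted p = 0.0505).

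For TWEAK and its receptor Fn14, ligand and receptor moved in opposite directions in Winnie-Prolapse. Tnfrsf12a, encoding Fn14, which is induced on injured epithelium and stroma, ranged from 5.25 to 17.8 CPM in C57BL/6 (median 10.9), 3.64 to 19.9 CPM in Winnie (median 8.57) and 13.1 to 67.2 CPM in Winnie-Prolapse (median 28.6). It was upregulated in Winnie-Prolapse (1.65 ± 0.34, adjusted p = 0.000956, a call that held in 3 of 15 fits without 1 library and was lost with a term for sex or without TMM factors) and at the broader limit against Winnie (1.82 ± 0.39, adjusted p = 0.0184). Tnfsf12, encoding TWEAK, held 6.66 to 10.3 CPM in C57BL/6 (median 8.06), 4.76 to 7.79 CPM in Winnie (median 5.75) and 2.69 to 6.61 CPM in Winnie-Prolapse (median 5.33). It was the 1 member lower in every Winnie-Prolapse library than in every C57BL/6 library, where 9.45% of all genes were, and it fell by 0.64 on the log2 scale (SE 0.18, adjusted p = 0.00643). Without C57BL/6 replicate 7 or Winnie-Prolapse replicate 1 the change was under 1.5-fold. Tnfsf12 overlaps Tnfsfm13 on the same strand.

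Of the lymphotoxin and LIGHT genes, which act in lymphoid tissue formation, Tnfsf14 and Tnfrsf14 were called in Winnie-Prolapse and Ltb and Ltbr were not. Tnfsf14 encodes LIGHT, a ligand of activated T cells. It ranged from 0.0723 to 0.347 CPM in C57BL/6 (median 0.154), 0.134 to 0.705 CPM in Winnie (median 0.262) and 0.514 to 2.68 CPM in Winnie-Prolapse (median 0.744), with no overlap between C57BL/6 and Winnie-Prolapse (2.53 ± 0.38, adjusted p = 6.12e-05). Tnfsf14 had 2 to 9 counts in C57BL/6, 4 to 22 counts in Winnie and 17 to 81 counts in Winnie-Prolapse. It passed the low-count filter through the Winnie-Prolapse libraries and was not tested between Winnie and C57BL/6. A difference was thus needed for it to be tested. Its call against C57BL/6, 1 of the 17, and its call against Winnie at the broader limit are therefore no independent support. The calls of Tnfrsf9, Tnfsf8 and Tnfrsf26, also among the 17, have the same limit. Tnfrsf14 encodes HVEM, which binds LIGHT and the inhibitory receptor BTLA, and it rose from 5.0 to 10.4 CPM in C57BL/6 (median 7.3) to 8.11 to 21.3 CPM in Winnie (median 14.3; 1.02 ± 0.22, adjusted p = 0.00641) and 8.77 to 22.3 CPM in Winnie-Prolapse (median 16.0; 1.14 ± 0.19, adjusted p = 0.000169). Ltbr, the lymphotoxin beta receptor, was at 96.7 ± 7.74, 116 ± 20.5 and 130 ± 20.7 CPM (SD, n = 8, 7 and 7). Its change in Winnie-Prolapse (0.50 ± 0.08, adjusted p = 0.000126) was under 1.5-fold. Ltb, a membrane ligand of B and T cells, did not pass (0.64 ± 0.53 in Winnie-Prolapse, adjusted p = 0.321).

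Genes of the BAFF and APRIL system, which keeps B cells and plasma cells alive, were next compared. Tnfsf13b (BAFF) ranged from 2.16 to 5.35 CPM in C57BL/6 (median 4.15), 2.89 to 9.96 CPM in Winnie (median 5.67) and 5.76 to 13.1 CPM in Winnie-Prolapse (median 9.06). All Winnie-Prolapse libraries lay above C57BL/6 (1.33 ± 0.22, adjusted p = 0.000137), whereas the Winnie call (0.75 ± 0.26, adjusted p = 0.0465) held in 5 of 15 fits that left out 1 library. That Winnie call was also lost without TMM factors, without the low-count filter or with at least 10 counts per library. Tnfrsf17 encodes BCMA, the APRIL receptor of plasma cells, and held 0.286 to 1.26 CPM in C57BL/6 (median 0.622), 0.919 to 2.72 CPM in Winnie (median 2.1) and 1.19 to 3.02 CPM in Winnie-Prolapse (median 1.78). It was upregulated by 1.57 ± 0.31 in Winnie (adjusted p = 0.00462) and 1.65 ± 0.33 in Winnie-Prolapse (adjusted p = 0.000684), the latter past the study limit in 3 of 15 fits that left out 1 library and not with a term for sex or without the low-count filter. Its level per plasma cell cannot be read from these libraries, since 5 of 6 plasma cell markers were higher at the broader limit in Winnie and 5 in Winnie-Prolapse, and their part was not tested.

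Tnfsf13 (APRIL) ranged from 7.28 to 11.2 CPM in C57BL/6 (median 9.05), 10.5 to 15.8 CPM in Winnie (median 13.6) and 7.83 to 17.0 CPM in Winnie-Prolapse (median 12.9). It passed the broader limit in Winnie (0.61 ± 0.12, adjusted p = 0.00472), a call kept in 12 of 15 fits without 1 library and lost without TMM factors or with at least 10 counts per library, and reached 1.46-fold in Winnie-Prolapse (0.55 ± 0.18, adjusted p = 0.0185). The antisense transcript Tnfsf13os (chr11:69682138-69691141, plus strand) overlaps Tnfsf13 and Tnfsf12, and in Winnie its libraries (15.2 to 27.8 CPM) all lay above those of C57BL/6 (9.31 to 13.4 CPM; 0.89 ± 0.14, adjusted p = 0.00186). With Tnfrsf8 it was 1 of 2 tested members whose Winnie libraries all lay above every C57BL/6 library, where 0.463% of all genes did. The strand setting of the counting is not given in the sources used here, so that reads of Tnfsf13os and of the genes it overlaps may not be told apart. Tnfsf13 and Tnfsf12 also overlap Tnfsfm13 on the same strand.

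Tnfrsf13b (TACI) had medians of 3.16, 6.16 and 8.73 CPM and passed the broader limit in Winnie-Prolapse (1.18 ± 0.41, adjusted p = 0.0245), a call lost without Winnie-Prolapse replicate 7 (adjusted p = 0.0613) or C57BL/6 replicate 2 (adjusted p = 0.0536). Tnfrsf13c, the BAFF receptor of mature B cells, spread from 0.362 to 15.0 CPM within C57BL/6 and had nearly equal means in the 3 groups (4.79, 4.68 and 4.78 CPM). Of the C57BL/6 libraries, replicate 5 was the highest in Tnfrsf13c, Tnfrsf13b, Ltb (13.7 CPM), Lta (4.13 CPM) and Cd40 (4.05 CPM), and it also held the highest sum of 7 B cell markers in that group (266 CPM against 3.73 CPM in the lowest library, replicate 7). Without this library, Cd27, Cd40 and Tnfrsf13b also passed the broader limit in Winnie, and Tnfrsf4 and Tnfsf13b no longer did.

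Among the remaining costimulatory genes, Cd40, the receptor through which T cells activate B cells and antigen-presenting cells, ranged from 0.888 to 4.05 CPM in C57BL/6 (median 1.44), 1.32 to 3.58 CPM in Winnie (median 2.44) and 2.09 to 7.4 CPM in Winnie-Prolapse (median 4.17). It passed the broader limit in Winnie-Prolapse against C57BL/6 (1.49 ± 0.33, adjusted p = 0.00161) and against Winnie (1.05 ± 0.30, adjusted p = 0.0419), the latter in 5 of 14 fits that left out 1 library and not with a term for sex, without TMM factors or without the low-count filter. Its ligand Cd40lg did not pass the low-count filter, with at most 4 counts in any C57BL/6 library, 2 to 19 counts in Winnie and 5 to 20 counts in Winnie-Prolapse. Both in DESeq2 and in edgeR without that filter, Cd40lg passed the study limit in Winnie-Prolapse and the broader limit in Winnie. Cd27, a receptor of T and memory B cells, had medians of 0.326, 0.722 and 0.873 CPM and passed the broader limit in Winnie-Prolapse (1.46 ± 0.47, adjusted p = 0.0165). Cd27 had 1 to 25 counts in C57BL/6 and passed the low-count filter through the colitis libraries, so this call is no independent support. Its ligand Cd70 had 1 count in 1 library and 0 in the other 21.

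Some members passed neither limit in any group comparison in edgeR with all libraries. Tnfsf15 (TL1A), a ligand in a human Crohn's disease risk locus, had medians of 1.81, 1.64 and 1.89 CPM, and its receptor Tnfrsf25 (DR3) medians of 1.97, 1.6 and 1.49 CPM. Tnfrsf21 (DR6), at 115 ± 23.0, 116 ± 36.3 and 99.4 ± 16.4 CPM (SD, n = 8, 7 and 7), was among the highest receptor genes. Tnfrsf19 (TROY), a Wnt target of epithelial progenitors, was at 5.18 ± 1.88, 3.23 ± 2.22 and 3.04 ± 2.0 CPM, with a change in Winnie-Prolapse of -0.72 ± 0.30 (adjusted p = 0.0553). Tnfrsf19 was lower at the broader limit in Winnie-Prolapse without C57BL/6 replicate 1, 2 or 7 or Winnie-Prolapse replicate 2 and in DESeq2, and in Winnie without Winnie replicate 3. For these genes the test does not show that levels were equal.

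Over all 37 tested members, 10 did not overlap upward between Winnie-Prolapse and C57BL/6: Tnfsf14, Fas, Tnfsf10, Tnfrsf1b, Tnfrsf8, Tnfrsf9, Tnfrsf18, Tnfrsf1a, Tnfrsf23 and Tnfsf13b, where 6.5% of all genes tested did so. Tnfsf14 and Tnfrsf9 passed the low-count filter through the libraries in which they were high, so they add no support to this count.

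Winnie libraries differed widely among themselves. Of the 23 members higher in Winnie-Prolapse at the broader limit, Winnie replicates 1 and 2 exceeded every C57BL/6 library in 17 and 20 members. Replicate 3 did so in 10, and the females, replicates 4 to 7, in 6, 2, 7 and 13. Of all 2902 genes higher in Winnie-Prolapse by the same limit, replicates 1 to 7 exceeded every C57BL/6 library in 64.6%, 81.9%, 55.7%, 34.9%, 9.03%, 34.8% and 43.7%. Both sets were chosen with the same C57BL/6 libraries. Replicate 5 was the lowest Winnie library for 11 of the 23. Without it, 6 members passed the study limit in Winnie, with Tnfrsf1b, Tnfrsf9, Tnfrsf17, Tnfsf10 and Tnfsf13os added to Tnfrsf8, while the share of all genes called went from 0.0925% to 3.89% in the same fit. The summed CPM of all 42 members was 517 to 647 in C57BL/6, 583 to 1010 in Winnie and 805 to 1190 in Winnie-Prolapse. With group as a term, no member was called between males and females over all 22 libraries in edgeR (0.0658% of all genes were called). An unadjusted p under 0.05 was found for 0 of 37 tested members and for 818 of all 18236 genes tested. DESeq2 called 0 members, and 0.0627% of all genes. With a term for sex in the group comparisons, Tnfrsf12a and Tnfrsf17 no longer passed the study limit in Winnie-Prolapse and Cd40 did (16 members, 17.8% of all genes called), Cd27 and Tnf also passed the broader limit in Winnie (17 members, 16.7%), and Cd40 no longer did between the colitis groups (9 members, 5.28%). The test of males against females averages over the groups, so differences of opposite direction in single groups can cancel in it. Whether the sexes differed within Winnie or within Winnie-Prolapse was not tested.

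**Figure D4:**
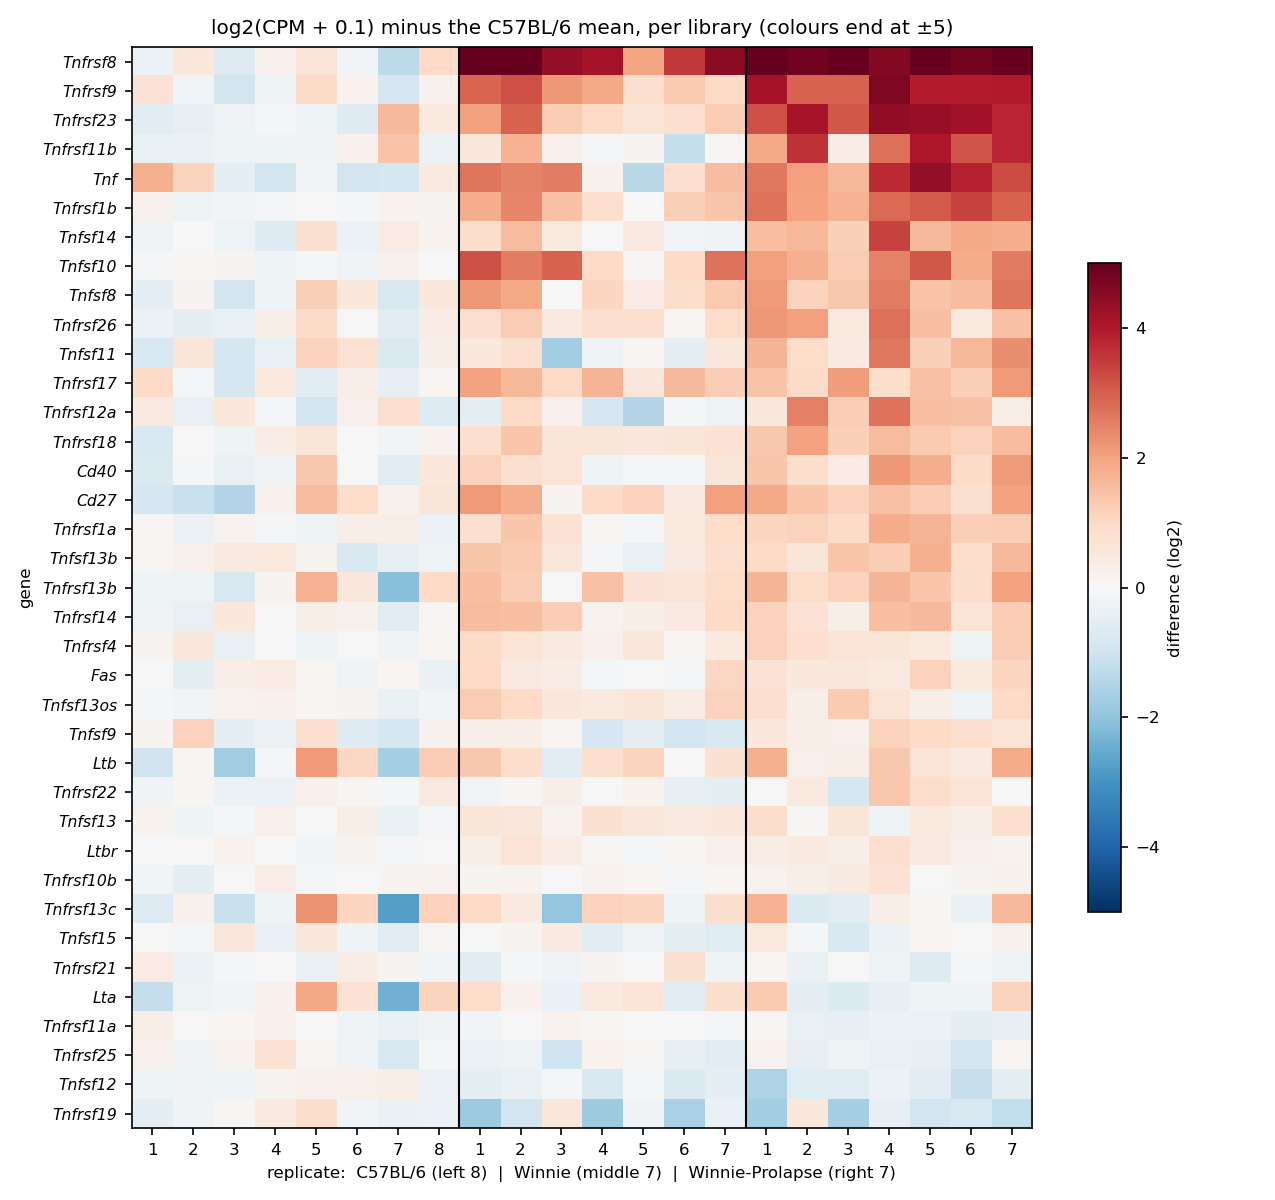
Log2(CPM + 0.1) of each tested member in each of the 22 libraries, minus the C57BL/6 mean of that gene, with red for higher and blue for lower values. Winnie replicates 1 and 2 are redder than replicate 5 over the upper rows, and C57BL/6 replicates 5 and 7 are at opposite ends for Tnfrsf13c and Lta.

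Genes that act downstream of these receptors were examined as a list of 56 adaptors, NF-kappaB subunits, their inhibitors and death effectors, all of which were tested. In Winnie 7 rose at the broader limit and 0 fell, so that 12.5% of the list was higher beside 7.42% of all genes, and the same 12.5% was called in either direction beside 15.9%. They included Tnfaip2, a TNF-induced gene (1.77 ± 0.33, adjusted p = 0.0035), Ripk3 and Mlkl, the kinase and pore-forming effector of necroptosis (1.58 ± 0.33, adjusted p = 0.00524 and 1.47 ± 0.25, adjusted p = 0.00236), Tnip3 (1.47 ± 0.23, adjusted p = 0.00172) and Nfkbiz (1.07 ± 0.25, adjusted p = 0.00843). In Winnie-Prolapse 11 rose and 1 fell at the study limit, so that 19.6% of the list was higher beside 9.84% of all genes, and 21.4% was called in either direction beside 18.3%. At the broader limit 14 rose and 2 fell there, 28.6% of the list beside 34.4% of all genes in either direction and 25% beside 16.7% higher. The largest changes were those of Tnfaip2 (3.62 ± 0.31, adjusted p = 4.53e-07), Ripk3 (2.62 ± 0.25, adjusted p = 1.21e-06), Mlkl (2.06 ± 0.13, adjusted p = 2.48e-08) and Tnip3 (2.03 ± 0.22, adjusted p = 3.6e-06). Nfkbiz (1.56 ± 0.21), Tifa (1.53 ± 0.24), the NF-kappaB subunit gene Rel (1.44 ± 0.22) and the inhibitor gene Nfkbie (1.16 ± 0.21) followed, and Tnip1 fell by 0.78 (SE 0.16, adjusted p = 0.00087). Between Winnie-Prolapse and Winnie 5 rose and 1 fell at the broader limit, so that 8.93% of the list was higher beside 4.27% of all genes, and 10.7% was called in either direction beside 6.99%. The median log2 fold change of the 56 genes was 0.18, 0.35 and 0.20 in the 3 comparisons, and most, among them the TRAF adaptor genes, were not called.

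Superfamily genes with other names, Eda, Edar, Eda2r, Ngfr and Relt, were also read. Ngfr, the neurotrophin receptor p75, was lower in Winnie (-1.22 ± 0.27, adjusted p = 0.00761) and Winnie-Prolapse (-1.57 ± 0.24, adjusted p = 8.43e-05). Summed smooth muscle markers (5 genes) were likewise lower, at 5860 to 10500 CPM in C57BL/6, 1770 to 6320 CPM in Winnie and 1140 to 2780 CPM in Winnie-Prolapse, and the part of this in the Ngfr result was not tested. Relt was higher in Winnie-Prolapse at the broader limit (1.38 ± 0.33, adjusted p = 0.00286), Eda was lower in Winnie (-0.90 ± 0.32, adjusted p = 0.0498), and Edar did not pass the low-count filter in these 3 comparisons.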

How the data were processed

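Poly(A) RNA of 22 distal colon samples was sequenced from stranded libraries. Per the labels, the authors used the build GRCm38, STAR and featureCounts, and they deposited raw counts per gene as whole numbers with no normalization. The strand setting, annotation release and treatment of shared reads are not given in the sources used here. From these counts, CPM (counts scaled by the library total) and CPM per kilobase of exon (GENCODE M21, GRCm38, all 42 members matched by identifier) were computed. Groups were read from the labels, and all 7 labelled Winnie libraries were used, which is more than the methods of the study give for colon RNA sequencing. The 3 group comparisons were fitted each on its own 2 groups with the edgeR 4.0.16 quasi-likelihood F test in R 4.3.3 (TMM, filterByExpr, Benjamini-Hochberg adjustment over all genes tested), and the sex comparison over all libraries with group as a term. On simulated data made from the Winnie and C57BL/6 libraries (17401 genes), the test recovered 170 of 200 genes changed 4-fold at an adjusted p under 0.001, with 0 false calls, and 188 of 200 changed 8-fold, with 1 false call. For Winnie-Prolapse it recovered 153 of 200 genes changed 4-fold against C57BL/6 (17827 genes) and 154 of 200 against Winnie (17616 genes), each with 0 false calls. At 8-fold it recovered 168 of 200 against C57BL/6 and 168 of 200 against Winnie, also with 0 false calls. The simulation drew each gene independently of the others. It therefore lacks spread that many genes of 1 library share, such as that of Winnie replicate 5, and its figures do not cover such spread. P-values measure the spread between mice, and 3-count limits cover counting error only. No pair of libraries of the same group agreed within sampling noise.

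Alternatives were no TMM factors, DESeq2 1.42.0, the bias-adjusted fit of edgeR, all 3 groups fitted together, a term for sex, no low-count filter, a minimum of 10 counts per library, and leaving out each library. Promoters were read from RefSeq annotation of GRCm38. The members and lists were chosen with earlier results of these data known. Values in every library are described for members called at an adjusted p under 0.001 and for their known ligand or receptor, other members are given by range, median or mean, and at most 8 pathway genes per comparison are named by the largest change. Tnip1, the 1 pathway gene that fell at the study limit, is named outside this rule, after its values were seen.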

Additional observations from a re-analysis of the deposited data

Results flagged for a closer look

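A library stood apart from the others of its group in 6 of 51 sets of values tested by Dixon's ratio, each time as the highest value. Chance gives about 1 in 20 for independent sets of normally distributed values. CPM was not transformed and the sets share the same libraries, so that this rate need not hold here. In C57BL/6 replicate 7, Tnfrsf11b was at 5.83 CPM against 2.44 CPM in the next library, and Tnfrsf23 was at 4.53 CPM against 2.02 CPM. In Winnie replicate 2, Tnfrsf11b was at 7.34 CPM (next 3.14 CPM), Tnfrsf18 at 3.52 CPM (next 2.37 CPM) and Tnfrsf23 at 11.5 CPM (next 6.19 CPM). In Winnie-Prolapse replicate 4, Tnfsf14 was at 2.68 CPM against 0.886 CPM in the next library. Outside the superfamily, mammary gland markers summed to 1.55e+05 CPM in Winnie-Prolapse replicate 6 and to at most 47.1 CPM in the other libraries. The causes were not tested.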

How the results depend on the processing

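The count of superfamily genes called between Winnie and C57BL/6 at the study limit (1) became 9 in DESeq2 (4.11% of all genes called, against 0.0925%), 2 with all 3 groups in one fit (1.12%) and 0 with at least 10 counts in every library, where Tnfrsf8 is no longer tested. It was 0 to 6 when 1 library was left out (0% to 3.89% of all genes), with Tnfrsf8 lost without C57BL/6 replicate 1, 2, 3, 4 or 6 (adjusted p up to 0.00152). At the broader limit (15) it was 7 with at least 10 counts in every library (14% of all genes), where fewer genes were tested, and 11 to 17 when leaving out 1 library (11.1% to 21.1%, against 15.9%). Between Winnie-Prolapse and C57BL/6 the study limit gave 17, or 11 with at least 10 counts in every library (17.2% of all genes, against 18.3%) and 13 to 16 without 1 library (14.4% to 20.8%), and the broader limit 23 to 27 without 1 library (32.3% to 36.9%, against 34.4%). Between Winnie-Prolapse and Winnie the study limit gave 0, also in each fit that left out 1 library, but 5 in DESeq2 (2.19% of all genes). At the broader limit (10) leaving out 1 library gave 5 to 12 (2.51% to 11% of all genes, against 6.99%), with 5 without Winnie replicate 4 (2.51%) and 6 without Winnie replicate 5 (2.96%), Winnie replicate 6 (3.63%) or Winnie-Prolapse replicate 4 (3.11%). Over 49 calls of single genes and 1053 refits, 942 kept the call, 111 lost it with the same direction and 0 reversed. Refits in which the minimum of 10 counts removed the gene, as for Tnfrsf8, Tnfrsf9 and Tnfsf14, are in none of these numbers. The cause of these shifts was not tested, apart from the genes that the stricter filter removed. Tnfrsf4, Tnfsf13 and Tnfsf13b were still tested under that filter, and why their Winnie calls at the broader limit were lost was not tested. No paired analysis was possible because replicate numbers were given in accession order and tie no mouse of 1 group to a mouse of another. Low counts limit Tnfsf4, Tnfsf18, Fasl, Cd70 and Cd40lg, and age and prolapse cannot be told apart.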
